A study of Danio rerio with 3 samples.

Results

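The cells described here are the 65 cells of the 48 hpf library that carry the name RG in the integrated annotation of the series. RG is read here as radial glia. They were 65 of the 2394 cells of that library and of the 6264 cells of the series, and they were chosen by their deposited class name alone. At 24 hpf 1 cell and at 36 hpf 4 cells carried the same name. The name was assigned by the authors to a cluster of the integrated data, cluster number 23, which held all 65 cells.

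Radial glia are the elongated cells of the neural tube whose processes span the wall of the cord from the central canal to its outer surface. In zebrafish they persist after the early wave of neurogenesis, can act as neural stem cells and carry out tasks that astrocytes take on in mammals. Their usual markers are gfap, a filament protein of glia, fabp7a, a fatty acid binding protein of radial glia, and slc1a2b, a glutamate transporter. The tables used here hold values per cell but none per gene, so these markers were not checked and the class goes by its deposited name.

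All libraries came from wild-type zebrafish embryos of the transgenic strain Tg(olig2:EGFP), without treatment, at 24, 36 or 48 hours post fertilization (hpf). Embryos were dissociated and EGFP-positive cells were sorted and captured with the 10x Chromium 3' kit, in which each RNA molecule is counted by a UMI (unique molecular identifier). The reporter follows olig2, a gene of the ventral progenitor domain that makes motor neurons and oligodendrocyte precursors, so a radial glial cell is in these data only if it carried EGFP. The source is labelled as spinal cord cells, while the protocol describes no dissection of the cord, and how many embryos went into a library is not given in the labels. Each stage has 1 library and no replicate, so no test between groups of cells was made and intervals cover counting error only.

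Each cell appears in both the integrated table and the table of its stage, each with its own class names, cell cycle scores and 2-dimensional map. The 48 hpf library held 17562789 UMIs, with a median of 5774.5 UMIs and 1941 detected genes per cell and a median mitochondrial share of 2.35%. The medians of the other libraries were 4569 and 8935.5 UMIs per cell. No barcode of the 48 hpf cells occurred in another library, while the other libraries shared 7 barcodes.

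The RG name covered a larger and more mixed set of cells when the 48 hpf stage was annotated by itself. By the integrated table RG cells were 2.72% of the library (65 cells, exact 95% binomial interval 2.10 to 3.45), and by the stage table they were 9.11% (218 cells, 7.98 to 10.3). Nearly all integrated RG cells, 62 of 65 (95.4%, 87.1 to 99.0), were RG in the stage table too. The reverse did not hold: of the 218 cells that the stage table calls RG, 28.4% (22.6 to 34.9) kept that name in the integrated table and 156 cells had another.

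The 156 cells that are RG only by the stage table were mostly named as neural precursors in the integrated table. NP1, a class named as neural precursor, took 111 of them, which is 50.9% of the stage RG cells (44.1 to 57.7) and 54.7% of the 203 NP1 cells of the library (47.6 to 61.7). The pMN2 class, from the olig2 progenitor domain, took 26 cells, or 26.0% of its 100 cells (17.7 to 35.7). The pMN3 class took 8 cells of its 13 and NM Progenitor 6 cells of its 19. The last 5 cells were 3 CMN Precursor, 1 Lateral FP and 1 Pre-OPC cell. No stage RG cell was named as a motor neuron, an interneuron, OPC, Pre-OL or MEP Glia.

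**Figure D1:**
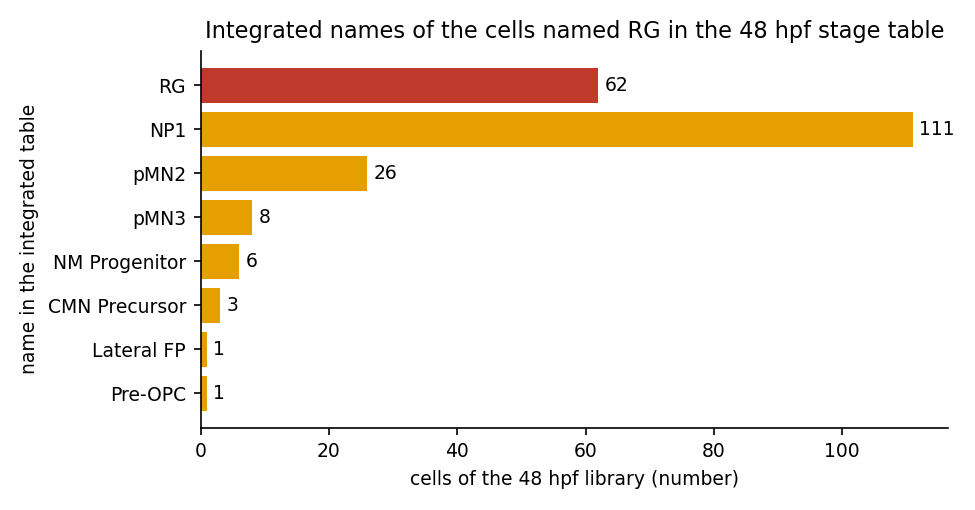
Integrated names of the 218 cells of the 48 hpf library that the stage table calls RG. Bars give the number of cells on the horizontal axis for each integrated name; RG has 62 cells, and NP1 has more, 111 cells.

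The 3 integrated RG cells that were not RG in the stage table were all named Lateral FP there, a class of the floor plate. They had 1823, 3094 and 3254 UMIs and 936, 924 and 1069 detected genes. All 3 lay below the lower quartile of the RG cells in UMIs (5500) and in genes (1732). The integrated table called all 3 of them G2M, whereas the stage table called 2 of them G1 and 1 S.

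By the calls of the integrated table almost every RG cell was in S, when DNA is copied, or in G2M, when the cell prepares for division and divides. The phase calls gave 57 cells to S, 7 to G2M and 1 to G1, so that 98.5% (64 of 65, 91.7 to 100.0) were called S or G2M. By the calls of the stage table the same 65 cells were 7 in S, 7 in G2M and 51 in G1, or 21.5% (14 of 65, 12.3 to 33.5) in S or G2M. In the 2329 other cells of the library the share was 17.9% (16.4 to 19.5) by the integrated calls and 33.7% (31.8 to 35.7) by the stage calls. RG thus stood 80.6 points above them by the integrated calls (73.6 to 82.7) and at a difference of -12.2 points by the stage calls (-21.6 to -0.0635). The largest block of cells, 46 of 65, was called S by the integrated table and G1 by the stage table. Only 9 of 65 RG cells (13.8%, 6.53 to 24.7) had the same phase in both tables, against 1757 of the 2329 other cells of the library (75.4%, 73.6 to 77.2). Of the 19 integrated classes with at least 50 cells at 48 hpf, RG had the lowest share of cells with an equal phase call, and the next lowest was NP2 with 50.5%.

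The motor neuron classes, taken by their names as cells that have left the cycle, show how often each set of calls comes up there. That they had left the cycle was not checked. By the integrated calls, 0.615% of the 813 cells of MN1 to MN5 were in S or G2M (0.20 to 1.43), so that RG stood 97.8 percentage points higher (interval of the difference 91.1 to 99.4). By the stage table the motor neuron level was 18.9% (16.3 to 21.8), and RG stood 2.60 points higher, with an interval from -7.07 to 14.8. The stage share of RG was thus near the pooled motor neuron share, with a counting interval that spans 0. The motor neuron classes themselves differed by the stage calls, from 9.05% in MN4 to 32.4% in MN5, and RG lay within that range. With a score above 0.1 the stage difference between RG and the pooled motor neurons was 5.78 points (1.28 to 14.6). Where a call asked for a score above 0.1, the stage table left 4 of 65 RG cells (6.15%, 1.70 to 15.0) and 3 of 813 motor neuron cells (0.369%, 0.0762 to 1.07). The integrated table left 46 RG cells (70.8%, 58.2 to 81.4) and 2 motor neuron cells (0.246%, 0.0298 to 0.886) under the same rule.

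The RG cells and the other stage RG cells stood in opposite order by the 2 sets of calls. By the integrated calls, 98.5% of the RG cells were called S or G2M, against 69.2% (61.4 to 76.4) of the 156 stage RG cells with another integrated name, a difference of 29.2 points (19.4 to 37.3). By the stage table the values were 21.5% of the RG cells and 67.3% (59.3 to 74.6) of the 156 cells, a difference of -45.8 points (-57.5 to -31.4). With a score above 0.1 the difference by the stage calls was -25.9 points (-35.0 to -14.5), and that by the integrated calls 25.9 points (10.9 to 39.2). At the cut of 0 the share of the 156 cells hardly moved between tables, and 101 of them (64.7%, 56.7 to 72.2) had the same phase in both. Above 0.1 their shares were 44.9% (36.9 to 53.0) by the integrated and 32.1% (24.8 to 40.0) by the stage table. Weighting the 156 cells to the UMI depth of the RG cells gave 69.4% by the integrated and 63.5% by the stage table.

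Within those 156 cells the integrated names went with different phases. All 26 cells named pMN2 were called S or G2M by both tables, 25 of them G2M, and their median G2M score was 1.02 in either table. Of the 111 cells named NP1, 61.3% (51.5 to 70.4) were called S or G2M by the integrated table and 62.2% (52.5 to 71.2) by the stage table. These like shares were not made of the same cells, since 62 of the 111 (55.9%) had the same phase in both tables. The shares were 29.7% and 13.5% with a score above 0.1. Weighted to the UMI depth of the RG cells, they were 62.3% by the integrated and 49.4% by the stage table, with 8 cells in the smallest depth bin. Of the 8 cells named pMN3, 6 were called S or G2M by either table. Of the 6 named NM Progenitor, all 6 were called so by the integrated table and 3 by the stage table. With a score above 0.1 they were 4 and 3 of the 6, too few cells to set beside RG. Of the other 92 NP1 cells, 91 are NP in the stage table. These 92 cells were at 15.2% (8.58 to 24.2) by the integrated table and 57.6% (46.9 to 67.9) by the stage table. Most of the stage calls were near the cut, since the higher stage score lay within 0.05 of 0 in 70 of the 92. With a score above 0.1 their shares were 5.43% by the integrated and 6.52% by the stage table. The NP1 cells that share the RG name at 48 hpf and those that do not were therefore apart by the integrated calls, and their intervals overlapped by the stage calls.

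**Figure D2:**
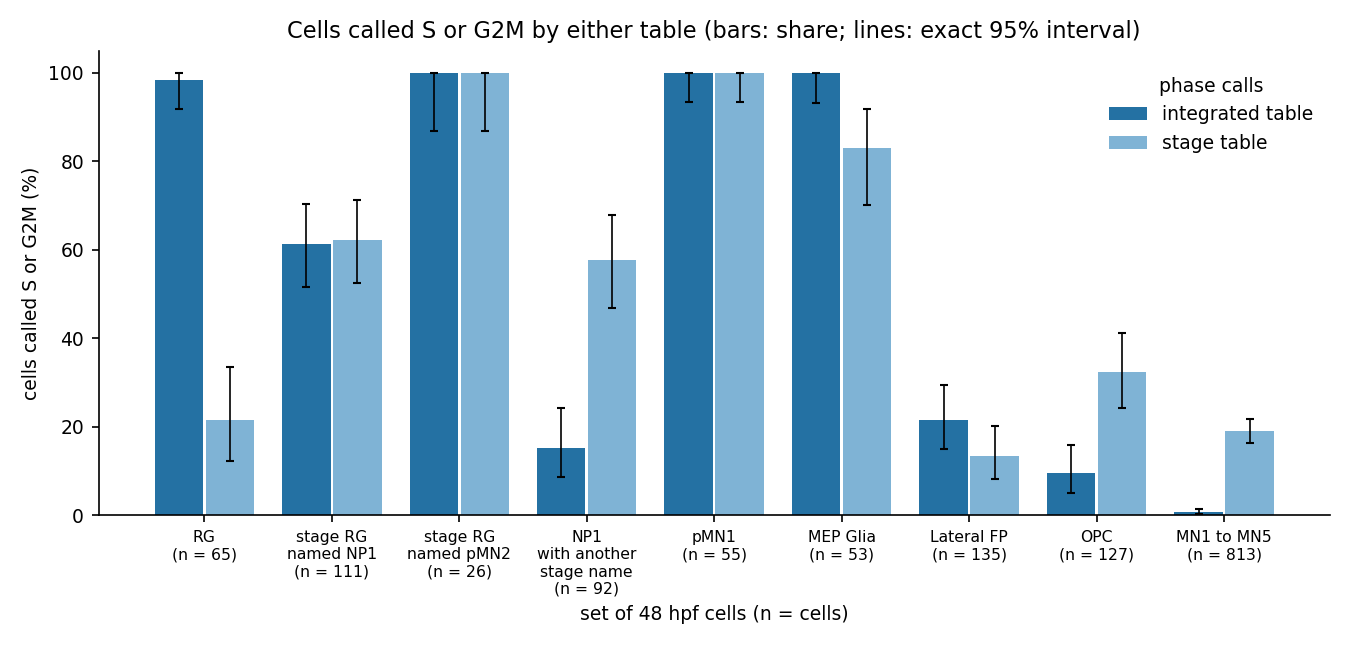
Share of cells called S or G2M (vertical axis, percent) in sets of 48 hpf cells, by the calls of the integrated table (dark bars) and of the stage table (light bars), with exact 95% binomial intervals as lines. RG has 98.5% by the integrated calls and 21.5% by the stage calls, whereas the stage RG cells named NP1 have 61.3% and 62.2% and those named pMN2 100% by both.

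The other glial and progenitor classes did not all behave in this way. MEP Glia, cells of the motor exit points, had 100% (53 of 53, 93.3 to 100) by the integrated table and 83.0% (70.2 to 91.9) by the stage table. All 55 cells of pMN1 were called S or G2M by both. OPC, the oligodendrocyte precursors, went the opposite way from RG at the cut of 0. They had 9.45% (4.98 to 15.9) by the integrated table and 32.3% (24.3 to 41.2) by the stage table. The cells of the library outside RG rose as well, from 17.9% to 33.7%. With a score above 0.1 OPC had 3 of 127 cells (2.36%) by either table, and 93 of the 127 higher stage scores lay within 0.05 of 0. Lateral FP was at 21.5% (14.9 to 29.4) and 13.3% (8.10 to 20.3). In the order of the 19 classes by this share RG was in place 4 by the integrated calls, after MEP Glia, pMN1 and pMN2, and in place 10 by the stage calls.

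The S scores behind these calls lay between those of the other classes with most cells called S or G2M. The integrated S score of the RG cells had a median of 0.142, quartiles of 0.0749 and 0.189 and a range from -0.0742 to 0.516, and it was above 0 in 62 of 65 cells. The median of the other cells of the library was -0.277, and the median RG cell lay at percentile 91.6 of the library. The median S score was higher in pMN1, at 0.403, and in MEP Glia, at 0.556, classes in which both tables called most cells S or G2M. It was lower in pMN2, at 0.0116, where both tables called every cell S or G2M. The integrated G2M score of the RG cells had a median of -0.0279, with a range from -0.162 to 0.343, and was above 0 in 23 cells. Both scores were above 0 in 21 cells. Of the 2329 other cells, the S score was above 0 in 275, the G2M score in 311 and both in 169. In the classes named here, both were above 0 in 26 of 53 MEP Glia, 46 of 55 pMN1 and 40 of 100 pMN2 cells.

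In the stage table the median scores of the same RG cells lay in the middle of the library. The stage S score had a median of -0.0299 and a range from -0.0861 to 0.124, with 10 of 65 cells above 0, and the median RG cell lay at percentile 51.2. The stage G2M score had a median of -0.0667 and a range from -0.211 to 0.352, with 8 cells above 0 and the median cell at percentile 49.3. The medians of the other cells were -0.0313 for the S score and -0.0654 for the G2M score. Of these 2329 cells, 613 had a stage S score above 0 and 414 a stage G2M score above 0, larger shares than in RG. How the scores of either table were computed is not given, so it is not known whether a score of 0 marks the same state in both, and the calls are described here as calls, not as measured division. A percentile within the library compares the same 2394 cells in each table.

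The shift between tables was of opposite sign in RG and in most of the library. The S score was higher in the integrated than in the stage table in 63 of 65 RG cells, by a median of 0.161. It was higher in the integrated table in 283 of the 2329 other cells (12.2%), whose median shift was -0.256. Of the 19 classes of at least 50 cells, RG had the highest share of cells shifted upwards, 96.9%, followed by MEP Glia with 92.5% and pMN1 with 61.8%. The G2M score was higher in the integrated table in 45 of 65 RG cells, with a median shift of 0.0315, against a median of -0.151 in the other cells. Among the RG cells the S scores of the tables were weakly related (Spearman rho 0.144, Pearson r 0.322 over 65 cells of 1 library). Their G2M scores were related more closely (rho 0.649, r 0.781). In the 2329 other cells the S scores gave rho 0.558 and r 0.864, and the G2M scores rho 0.466 and r 0.892.

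**Figure D3:**
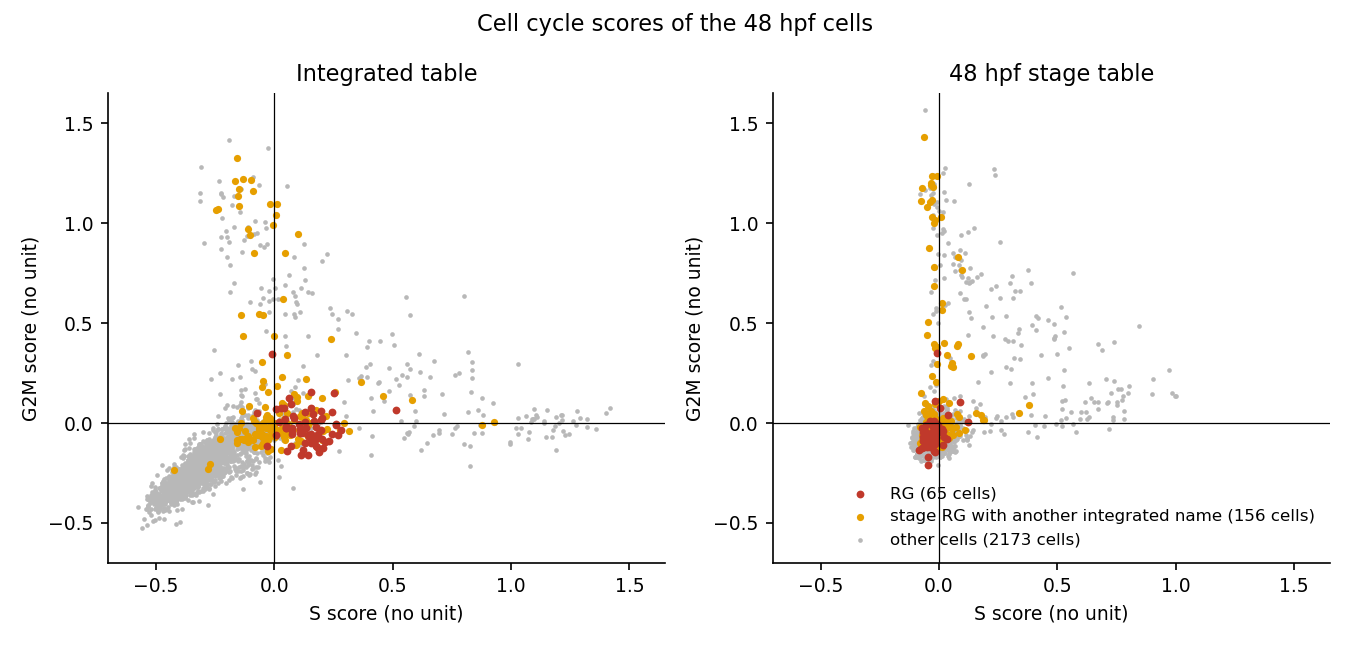
S score (horizontal axis) against G2M score (vertical axis) of each 48 hpf cell, with the integrated table on the left and the stage table on the right; lines mark a score of 0. The 65 RG cells lie at S scores with a median of 0.142 on the left, and on the right they lie with the bulk of the library at a median of -0.0299.

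In RG, as in the library, many stage calls were close to the cut at a score of 0. The stage scores were also less spread than the integrated ones. The S score quartiles of the other cells were -0.0562 and 0.0031 by the stage table and -0.370 and -0.140 by the integrated table. In RG the SD of the S score was 0.0361 and 0.0919, in that order. A fixed distance such as 0.05 or 0.1 thus covers more of the stage scores. The higher of both stage scores lay within 0.05 of 0 in 45 of 65 RG cells (69.2%) and in 60.1% of the other cells, and 36 of the 51 RG cells called G1 were within 0.05 below the cut. Among integrated scores, 7 of 65 RG cells (10.8%) and 10.2% of the other cells were within 0.05 of the cut. CC.Difference, the S score minus the G2M score, lay within 0.05 of 0 in 7 of 65 RG cells and 509 of 2329 other cells by the integrated scores. By the stage scores it did so in 39 RG cells and 1099 other cells, so the count was higher in both. CC.Difference had a median of 0.163 (quartiles 0.0759 and 0.259) in the RG cells of the integrated table and of -0.0805 in the other cells. In the stage table its median was 0.0338 in the RG cells and 0.0368 in the other cells.

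The RG cells were of middle depth with a narrower spread than the rest of the library. They had 898 to 12455 UMIs with a median of 6708 (quartiles 5500 and 7914), against a median of 5730 in the other cells of the library (quartiles 4217 and 8515). Those other cells mix many classes. Single classes lay on either side of RG, with closer quartiles in NP1 (4291.5 and 5787) and wider ones in OPC (6363.5 and 9682). No RG cell was above the library's 95th percentile of 16737.6 UMIs, where 120 of the 2329 other cells lay, and 3 RG cells had under 2000 UMIs. Detected genes per RG cell had a median of 2057 (quartiles 1732 and 2233), against 1936 in the other cells. In the band of 5500 to 7914 UMIs the medians were 2057 genes in 33 RG cells and 2093 genes in 555 other cells, and the quartile ranges overlapped (1916 to 2192 and 1910.5 to 2248).

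The median RG cell held more RNA than the median of the cells that share its stage name, while the means were alike. The RG cells had a median of 6708 and a mean of 6597 UMIs. The 156 stage RG cells with another integrated name had medians of 5481 UMIs and 1717 genes and a mean of 6597 UMIs, and the 111 of them named NP1 had 5222 UMIs and 1645 genes. The 26 named pMN2 and the 8 named pMN3 were deeper than the RG cells, with medians of 10523.5 and 8530 UMIs. In the same band of 5500 to 7914 UMIs the RG cells had a median of 2057 genes, against 1940 (quartiles 1768 and 2017.5) in 35 stage RG cells named NP1 and 1768 (1717 and 1867) in 21 NP1 cells with another stage name. OPC, at 2083 genes, and Lateral FP, at 2098.5, were close to RG in that band. MEP Glia cells were the deepest of the glial classes compared, with a median of 12594 UMIs, against 6708 in RG.

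The mitochondrial share of the RG cells had a median of 2.41%, quartiles of 1.77% and 2.78% and a range from 0.301% to 4.50%. The other cells of the library had a median of 2.35%, and the stage RG cells with another integrated name 2.09%. A share over 3% was found in 13 of 65 RG cells (20.0%), against 477 of the 2329 other cells (20.5%). The level in RG was thus close to that of the whole library, which stood above the 0.686% and 1.06% of the 24 and 36 hpf libraries.

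**Figure D4:**
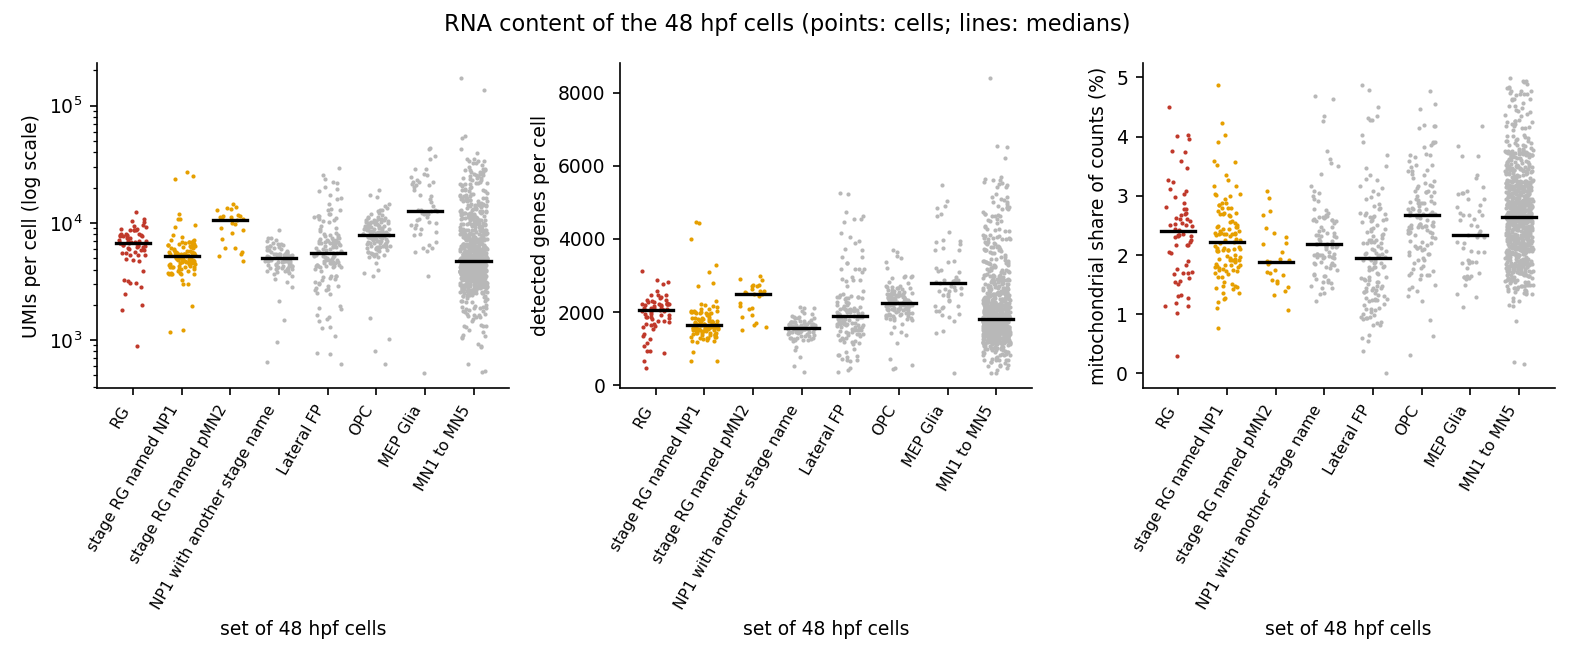
UMIs (log axis), detected genes and mitochondrial share of each 48 hpf cell in 8 sets of cells; points are cells and black lines medians. The RG cells have a median of 6708 UMIs, 2057 genes and 2.41%, with fewer UMIs than the MEP Glia cells (median 12594) and more than the stage RG cells named NP1 (5222).

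Among the RG cells the G2M calls of the integrated table went with depth. The 57 cells called S by the integrated table had a median of 6904 UMIs, whereas the 7 cells called G2M had a median of 3094 and none above 5295. Of these 7 cells, 3 were the shallow cells that the stage table names Lateral FP. The integrated G2M score was lower in deeper RG cells (Spearman rho -0.551, Pearson r -0.572 over the 65 cells). In the 156 other stage RG cells rho was 0.163 and r 0.388. The stage G2M score of the RG cells went the same way as their integrated score, with rho -0.310 and r -0.348. The S score of the RG cells was only weakly related to UMIs, with rho 0.204 in the integrated and -0.228 in the stage table. The part of depth in the G2M calls of RG was not tested. The only RG cell called G1 by the integrated table had 7706 UMIs, an S score of -0.0300 and a G2M score of -0.115, and was called G1 by the stage table as well. By the stage calls the medians were 7772 UMIs for the 7 cells in S, 5500 for the 7 in G2M and 6869 for the 51 in G1.

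On both maps the RG cells formed a compact patch. Of the 15 nearest 48 hpf cells around each RG cell in the integrated map, 90.1% were RG cells, 2.67% NP1, 2.56% NM Progenitor and 2.36% Lateral FP. In the stage map, which was made without the integrated names, 80.6% of the 15 nearest cells were integrated RG cells, 13.5% were stage RG cells with another integrated name and 5.85% were other cells. The RG cells thus kept together in the stage map as well, although the stage annotation gave the same name to cells of NP1 and pMN2. This was not particular to RG, since 83.4% of the neighbours of the 156 other stage RG cells in that map came from those 156 cells. Most of the 15 neighbours were RG cells for 56 of the 65 RG cells in the stage map, and for 11 of the 156 other stage RG cells. The 3 cells named Lateral FP in the stage table lay elsewhere in that map, where 6.67% of their neighbours were RG cells. No NP1 cell with another stage name was among the 15 neighbours of an RG cell on either map. Distances on such maps are not measures of expression, and both maps and both sets of names come from the same RNA counts.

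**Figure D5:**
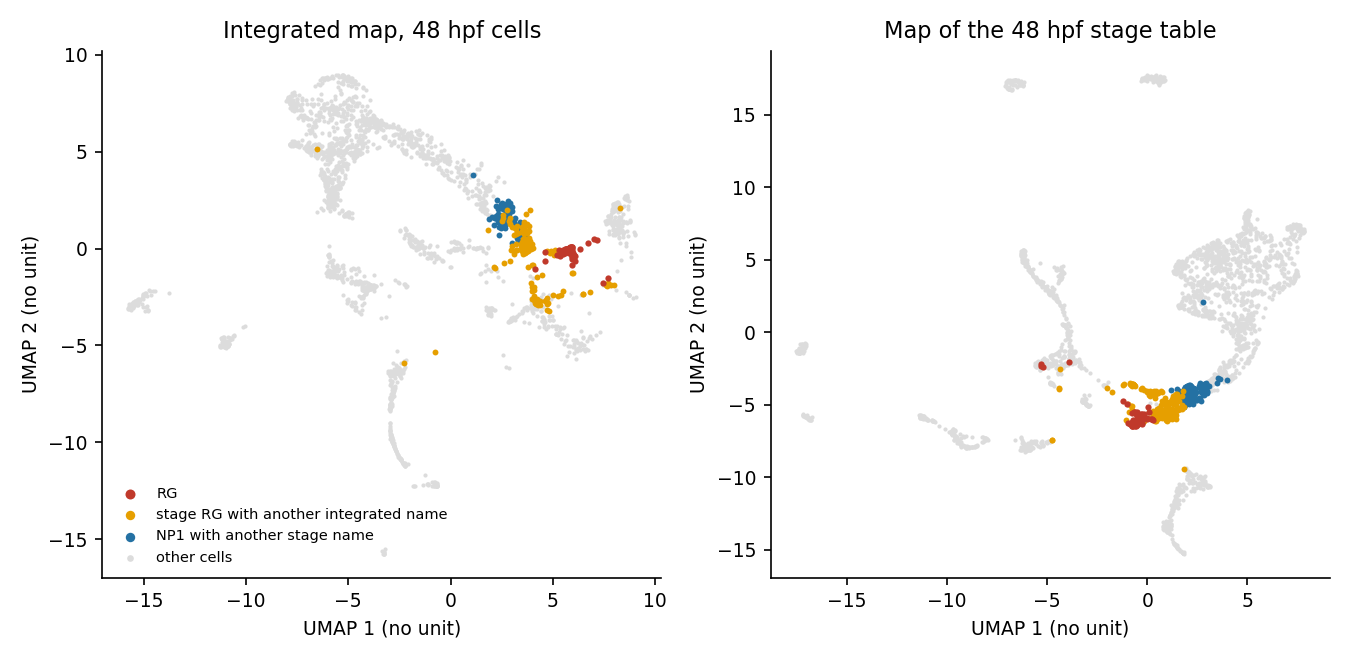
Position of the 2394 cells of the 48 hpf library on the integrated map (left) and on the map of the stage table (right); axes are UMAP coordinates without unit. The RG cells sit together on both, with 90.1% and 80.6% RG cells among their 15 nearest neighbours. Stage RG cells that carry another integrated name make up 5.85% and 13.5% of those neighbours.

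The 5 RG cells of the earlier libraries carried progenitor or floor plate names in their own stage tables. At 24 hpf the only RG cell was NM Progenitor by its stage table, had 1063 UMIs and a mitochondrial share of 4.14%, and was called G2M by both tables. At 36 hpf the 4 RG cells had 4870, 6194, 7403 and 8025 UMIs, and their stage names were pMN3, Lateral FP, pMN2 and pMN2 in that order. The integrated table called 3 of these 4 cells S and 1 G2M, and the stage table called 2 S, 1 G2M and 1 G1. The cell that changed had an integrated S score of 0.00787, close to the cut. These cells are too few to set a share of S or G2M calls beside that at 48 hpf.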

How the data were processed

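The files were tables of cells, with the counts of UMIs and of detected genes per cell as the authors deposited them, not normalised. The mitochondrial share was deposited as a percent of each cell's counts. The S and G2M values, CC.Difference and the map coordinates are scores from the deposited tables. The submitters' processing notes name Cell Ranger, Seurat and GRCz11. Their settings, the treatment of doublets and the gene lists behind the scores are not stated in these sources. Phase followed the higher score, or G1 with neither above 0, in each of the 6264 cells by either table. The deposited cells had at least 504 UMIs and at most 4.995% mitochondrial counts, which are the extremes observed and not stated limits.

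Cells were matched between tables by barcode within a stage. Shares have exact (Clopper-Pearson) 95% intervals, and differences of shares join those limits by the square-and-add rule. Both were checked on simulated binomial counts. For differences that check held no share as high as the integrated S or G2M share of RG. With 1 library per stage no p-value was computed. Classes described were those given to at least 5 stage RG cells, plus NP1, Lateral FP, OPC and MEP Glia. pMN1 and MN1 to MN5 were added for reference. Depth weighting used 4 bins at the UMI quartiles of the RG cells. Alternatives were a minimum of 2000 UMIs, leaving out the 5% deepest cells, at most 3% mitochondrial reads, a score above 0.1, depth weighting and the stage annotation or scores. The members and lists were chosen with earlier results of these data known. The tools were matplotlib 3.10.9, scikit-learn 1.9.0, scipy 1.17.1, pandas 2.3.3 and numpy 2.4.6 in Python 3.11.15.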

Additional observations from a re-analysis of the deposited data

How the results depend on the processing

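Of 84 values recomputed for 15 results, 68 stayed within the counting interval of the value reported. Cells with at least 2000 UMIs, without the 5% deepest, weighted to the UMI depth of RG, or without the cells that the stage table names Lateral FP (chosen after seeing the data) moved none past it. No RG cell was among the 5% deepest, so that setting could not change the phase shares or medians of RG. The minimum of 2000 UMIs and the Lateral FP setting each left out only 3 RG cells, so they could change these values little. With at most 3% mitochondrial reads the integrated S or G2M share of RG was 100%, 99.5 points over MN1 to MN5. With a score above 0.1 the share was 70.8% by the integrated calls (70.5 points over MN1 to MN5) and 6.15% by the stage calls, which was -25.9 points from the other stage RG cells (-45.8 without that minimum) and -4.19 from NP1 (-38.6 without it), where the interval of -10.9 to 5.46 spans 0. With all 218 stage RG cells, RG was 9.11% of the library, 77.5% were called S or G2M by the integrated and 54.1% by the stage table, and medians were 0.0425 for the S score, 5945.5 UMIs, 1825 genes and 2.17% mitochondrial. With stage scores the median S score turned to -0.0299 and the median G2M score was -0.0667. No paired analysis was possible because each stage had 1 library. The 65 cells limit the precision of every share of RG cells, and no interval covers differences between embryos, sorts or libraries.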

Other observations

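On the integrated map the nearest cells of the earlier libraries were also listed for the 48 hpf RG cells. Such a list is filled at any distance. Of the 15 nearest 24 hpf cells to each RG cell, 92.9% were named pMN3, 4.00% Lateral FP and 2.67% NM Progenitor, drawn from 100 different cells. Of the 15 nearest 36 hpf cells, 68.0% were pMN3 and 23.7% were RG, drawn from 81 different cells that include the 4 RG cells of that stage. The share of pMN3 in the whole 24 and 36 hpf libraries is not given here, so these values have no background beside them. A link between RG and pMN3 was not tested. The median distance from an RG cell to the nearest cell was 0.664 map units at 24 hpf and 0.127 at 36 hpf. For scale, the quartiles of the RG cells were 5.69 and 5.91 on UMAP 1. Their SD was 0.532 on UMAP 1 and 0.363 on UMAP 2. At 48 hpf 13 cells were named pMN3, and 8 of them were RG in the stage table.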
